A study of Mus musculus with 6 samples.

Results

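Ddx4, an RNA helicase of germ cells, and 9 other germline genes were examined in LSK cells, the lineage-negative, Sca1+ and c-Kit+ bone marrow cells that include haematopoietic stem cells and multipotent progenitors. The 10 genes were taken by name (Ddx4, Dazl, Piwil1, Piwil2, Piwil4, Mael, Tdrd1, Tdrd9, Sycp3 and Stk31), with each probe set that the array's annotation gives to one of them alone. This gave 13 probe sets of 45037 on the array, and 10 genes of 18193 with a probe set of their own. All 10 genes were measured, 3 of them (Dazl, Piwil4 and Stk31) by 2 probe sets and the other 7 by 1. Ddx4 is on the list because it was much lower in IkL/L than in WT cells in these same arrays, so its difference is described here and not tested. The other 9 genes share with it a role in germ cells, and the question was whether any of them was expressed in LSK cells or was lower together with Ddx4.

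Cells were sorted from IkL/L mice, which carry a hypomorphic mutation of Ikzf1 on both alleles, so that little functional Ikaros is made, and from wild-type (WT) mice. All mice were C57BL/6 and 6 to 7 weeks old, and none was treated. RNA was profiled on 3 arrays per genotype, where an IkL/L sample was a pool of 2 mice and a WT sample was 1 mouse, so that the number of mice per sample cannot be told apart from the genotype. In RNA from a sorted population, fewer cells that express a gene and less RNA per cell cannot be told apart.

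Germ cells protect their genome from transposons with piRNAs, small RNAs that are bound by PIWI proteins (Piwil1, Piwil2 and Piwil4 in the mouse). Ddx4, Mael and the Tudor domain proteins Tdrd1 and Tdrd9 sit with them in the germ granules, where piRNAs are made and used. Dazl binds mRNAs of germ cells and controls their translation, Sycp3 is part of the axis of meiotic chromosomes, and Stk31 is a kinase-like protein with a Tudor domain found in testis. In somatic cells such genes are normally kept silent, by DNA methylation of their CpG-rich promoters and by repressor complexes. One of these complexes holds Mga, Max, E2f6, L3mbtl2 and Pcgf6 and is known from mouse embryonic stem cells.

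The promoter of Ddx4 is shown because Ddx4 is the one gene of the list with a signal well above the array medians. These are the 250 bases before the start site in the RefSeq table (GRCm38.p6, chr13:112652311-112652560, minus strand), with the E-box CACGTG and the E2F-type sequence GCGGGAA in capitals.
Ddx4: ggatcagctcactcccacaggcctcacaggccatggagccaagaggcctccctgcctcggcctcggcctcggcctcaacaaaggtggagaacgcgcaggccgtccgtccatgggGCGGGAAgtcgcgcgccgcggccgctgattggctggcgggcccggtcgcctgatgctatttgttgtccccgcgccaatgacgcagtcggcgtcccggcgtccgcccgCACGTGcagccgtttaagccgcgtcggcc

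The 300 bases around this start site (250 before, 50 after) held 38 CpG dinucleotides, and 4.95% of the promoters of genes outside the list held as many or more. Promoters of 8 of the 10 genes were analysed here, in 12 windows, since some genes have several start sites. CpG counts in these windows ran from 0 to 38 with a median of 22, beside a median of 7.0 over the promoters of the other genes.

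The sequence CACGTG, which reads the same on both strands and is the site of Max-containing dimers, occurred in the promoters of 6 of the 8 genes (8 of 12 windows), against 8.07% of 27016 other genes (7.13% of their windows). Dazl and Piwil4 had no match. The motif was chosen after the sequences were seen, so this count is a description. CACGTG itself holds a CpG, and the other promoters were not matched to the listed ones for CpG content. The matches nearest to the start site in the other 5 genes are shown with 14 bases on each side, CACGTG in capitals, all from GRCm38.p6. They lie at chr1:166238948-166238981 (minus strand) for Mael, chr5:128736078-128736111 for Piwil1, chr6:49395470-49395503 for Stk31, chr10:88459530-88459563 for Sycp3 and chr19:56826184-56826217 for Tdrd1, all on the plus strand but the first.
Mael: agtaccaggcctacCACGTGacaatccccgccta
Piwil1: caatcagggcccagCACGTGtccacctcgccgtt
Stk31: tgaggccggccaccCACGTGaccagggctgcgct
Sycp3: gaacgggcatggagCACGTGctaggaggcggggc
Tdrd1: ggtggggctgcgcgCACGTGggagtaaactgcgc

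The distance of these matches from the start site was 29 bases in Ddx4, 43 in Sycp3, 154 in Piwil1 and 223 in Mael. Stk31 and Tdrd1 each have 2 start sites whose windows hold the match, at 55 and 120 bases from it in Stk31 and at 11 and 77 in Tdrd1. Another start site of Tdrd1 lies further downstream, and its window holds no match. The longer sequence GCGGGAA was found, searched on both strands, in Ddx4 and Sycp3 alone (2 of 8 genes, against 5.28% of the other genes). It was not among the motifs planned at first, so this count too is a description. GGGAA, the core that Ikaros proteins are known to bind, was found on either strand in 3 of 8 genes (Ddx4, Sycp3 and Piwil4), against 65.5% of the other genes, and in Ddx4 and Sycp3 it overlaps GCGGGAA. A match of letters does not show that a factor binds there.

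Before the genes themselves, the arrays were compared. They correlated at 0.9861 to 0.9950 over all probe sets. The brighter probe set of Ikzf1, the targeted gene, read 10.77, 10.85 and 10.93 in IkL/L 1, 2 and 3 and 11.57, 11.59 and 11.44 in WT 1, 2 and 3, a log2 difference of -0.68 that passed in limma (adjusted p = 0.0307), with all 3 mutant arrays lower. That result was lost without any one of 5 arrays (adjusted p 0.0645 to 0.157) and held without WT 3 (0.0436). The dimmer probe set of Ikzf1 gave -0.21, also with all 3 mutant arrays lower, and did not pass (adjusted p = 0.622 in limma). Where the probes of Ikzf1 lie relative to the mutation is not known here, so they do not check the labels. All 13 measured LSK markers lay above the median of each array, among them Kit at 11.07 to 11.35 in IkL/L and 11.21 to 11.50 in WT arrays. None of the 13 passed, and 4 had an unadjusted p under 0.05, beside 11.2% of all genes. Flt3, a receptor of lymphoid-primed progenitors, gave -0.88 (adjusted p = 0.132 in limma), and the stem cell factors Hlf and Mecom gave -0.59 (0.447) and -0.47 (0.328), each with all 3 mutant arrays below all WT arrays. Procr, a stem cell surface receptor, gave 0.69 (0.409), with overlapping groups. Of the 13 markers, 4 had groups apart with lower values, beside 9.59% of all genes. In 1, Gata2 at 0.30 (adjusted p = 0.631 in limma), they were apart with higher values, beside 7.62%. The part of such shifts within LSK cells in the Ddx4 difference was not tested. Ly6a, which encodes Sca1, had no probe set of its own. IkL/L 1 stood apart in sex-linked genes: Xist, which is transcribed from the inactive X chromosome, read 12.33 there and 4.65 to 5.29 on the other 5 arrays, and the Y-linked gene Kdm5d read 5.86 there and 7.19 to 7.69 on the others. Sex is not among the labels.

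Ddx4 read 4.04, 4.44 and 3.70 (log2 RMA values) in IkL/L 1, 2 and 3, against 8.21, 7.79 and 7.66 in WT 1, 2 and 3. All 3 mutant values were thus far below all 3 WT values, and 3.22 log2 units separated the highest mutant from the lowest WT array. The means were 4.06 ± 0.37 in IkL/L and 7.88 ± 0.29 in WT cells (SD, n = 3 each), a log2 difference of -3.82. Over the whole array, 2 probe sets without a gene of their own in the annotation differed more in this direction, and no probe set of another named gene did. Over all probe sets, 0.133% were called lower in IkL/L (limma, adjusted p under 0.05) and in 8.36% the mutant values lay wholly below the WT values. These shares are given for scale only, as Ddx4 was chosen by this contrast.

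The 2 groups also lay in different parts of the array's range. In WT arrays Ddx4 was brighter than 77.1% to 81.9% of all probe sets, and in IkL/L arrays brighter than 28.4% to 43.8%, which is below the array medians of 4.788 to 4.880. As a measure of what genes of other tissues read here, 78 probe sets of olfactory and vomeronasal receptors were used. Ddx4 lay above all of them in the WT arrays (100% on each) and above 67.9% to 85.9% in the IkL/L arrays. RMA gives no detection call, so the mutant level cannot be told from background, and the size of the difference is uncertain for that reason. Without any one array the log2 difference ran from -4.01 (without IkL/L 2) to -3.65 (without IkL/L 3), and it was -3.81 without IkL/L 1, the array that stood apart in Xist. Ddx4 is read by a single probe set, so no second measurement of it was available.

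**Figure D1:**
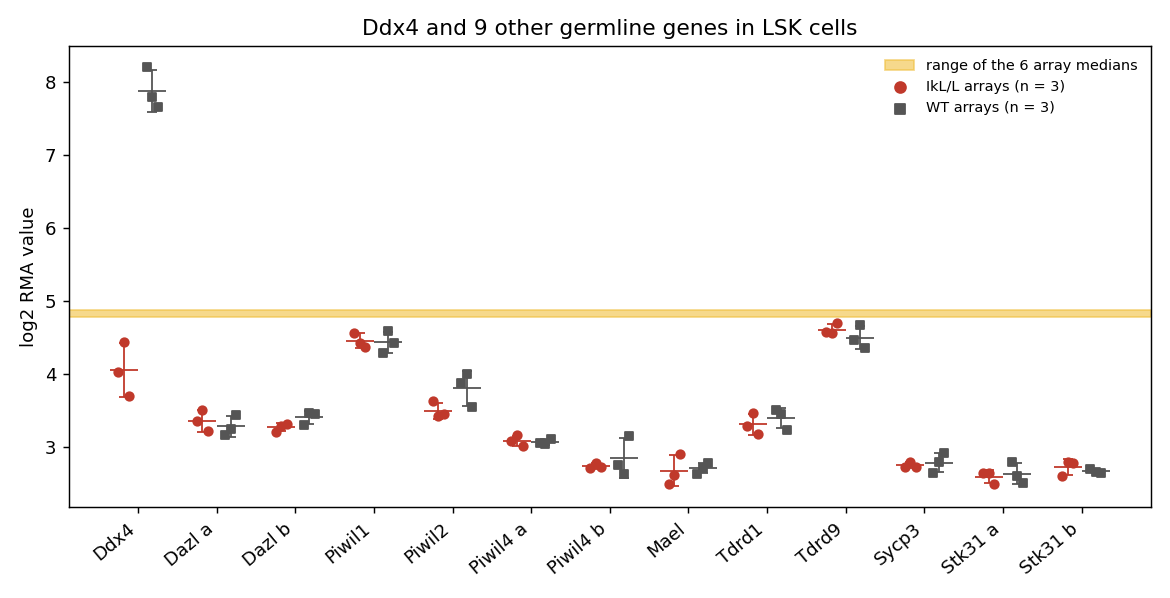
Log2 RMA value (vertical axis) of the 13 probe sets of the 10 genes, a and b where a gene has 2, with a point per array, a horizontal bar at the group mean and the SD as error bar (IkL/L red circles, WT grey squares, n = 3 each). The yellow band is the range of the 6 array medians, 4.788 to 4.880; Ddx4 in WT cells is the only group above it.

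None of the other 9 genes passed the test in either direction. Of their 12 probe sets, 0 passed in limma (adjusted p 0.585 to 0.981), beside 0.557% over all probe sets, and 0 had an unadjusted p under 0.05, beside 8.84%. In 0 of 12 the groups were apart, beside 8.36% lower and 6.06% higher over the array. The log2 differences ran from -0.31 to 0.12 with a median of -0.04, beside -0.02 over all probe sets; 7 of the 12 were below 0, beside 55.9%. The 95% intervals of the 12 differences all lay between -0.62 and 0.37. All 12 probe sets were below the median of every array in both genotypes. At such levels a lower value could hardly be read, and a change in a rare transcript can be missed.

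Among the PIWI genes, Piwil2 (MILI, which acts in fetal and adult male germ cells) had the lowest mean difference. It read 3.63, 3.43 and 3.45 in IkL/L 1, 2 and 3, against 3.88, 4.01 and 3.54 in WT 1, 2 and 3. The WT arrays 1 and 2 were above all mutant arrays and WT 3 was not, so the groups overlapped, and the log2 difference of -0.31 (95% interval -0.62 to 0.01) did not pass (adjusted p = 0.585 in limma). Piwil1 (MIWI, the PIWI protein of later male germ cells) read 4.57, 4.43 and 4.37 in IkL/L arrays and 4.29, 4.59 and 4.43 in WT arrays. Its groups interleaved and the difference was 0.02 (-0.24 to 0.28). Piwil4 (MIWI2, which acts in fetal male germ cells) was near the floor of the array on both probe sets. One read 3.08, 3.16 and 3.02 in IkL/L and 3.06, 3.04 and 3.12 in WT arrays, and the other 2.71, 2.79 and 2.73 in IkL/L and 2.76, 2.63 and 3.16 in WT arrays. Their differences were 0.01 and -0.11, with WT 3 the highest array of the second probe set.

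The granule proteins did not pass either, and their groups overlapped. Tdrd9, a helicase with a Tudor domain, read 4.58, 4.56 and 4.70 in IkL/L arrays and 4.46, 4.67 and 4.36 in WT arrays, with a difference of 0.12 (95% interval -0.14 to 0.37, adjusted p = 0.829 in limma). Tdrd9 and Piwil1 were the closest to the array medians of the 9 genes, brighter than 42.8% to 48.3% and 40.8% to 45.9% of all probe sets, and they lay above 87.2% to 91% and 85.9% to 89.7% of the receptor probe sets. Tdrd1, which binds Piwil2, read 3.29, 3.47 and 3.18 in IkL/L arrays and 3.50, 3.46 and 3.24 in WT arrays. Mael read 2.50, 2.62 and 2.91 in IkL/L arrays and 2.64, 2.71 and 2.78 in WT arrays, brighter than at most 5.68% of probe sets on any array. The differences of -0.09 for Tdrd1 and -0.03 for Mael were smaller than the SD within either genotype.

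Dazl, Sycp3 and Stk31 were dim on every array. The probe sets of Dazl read 3.36, 3.51 and 3.22 and 3.21, 3.30 and 3.32 in IkL/L arrays, against 3.16, 3.24 and 3.45 and 3.31, 3.46 and 3.45 in WT arrays. They gave differences of opposite sign, 0.08 and -0.13, and neither passed. Sycp3 read 2.73, 2.80 and 2.73 in IkL/L arrays and 2.65, 2.80 and 2.92 in WT arrays. The probe sets of Stk31 read 2.65, 2.64 and 2.50 and 2.61, 2.80 and 2.78 in IkL/L arrays, against 2.79, 2.60 and 2.51 and 2.71, 2.67 and 2.65 in WT arrays. The differences were -0.04 for Sycp3 and -0.04 and 0.06 for Stk31, and the arrays of both genotypes overlapped in each. The SD over all 6 arrays ran from 0.053 to 0.236 for the 12 probe sets of the 9 genes, beside a median of 0.154 over the array.

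A wider set of germline genes was then read by the brightest probe set of each gene. Of 118 genes in 5 lists (piRNA pathway, meiotic chromosomes, germ cell regulators, oocyte and spermatid), 109 were measured. None rose and 1 fell, beside 0.989% of all genes called (0.242% lower), and 10 of 109 had an unadjusted p under 0.05, beside 11.2% of all genes. The groups were apart with lower values in 7 genes and higher values in 5, beside 9.59% and 7.62% of all genes. The median difference was -0.03, beside -0.02 over all genes, and 69 of 109 were below 0, beside 55.5%. Of the 109 genes, 73 lay below and 22 above the array medians on all 6 arrays.

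**Figure D2:**
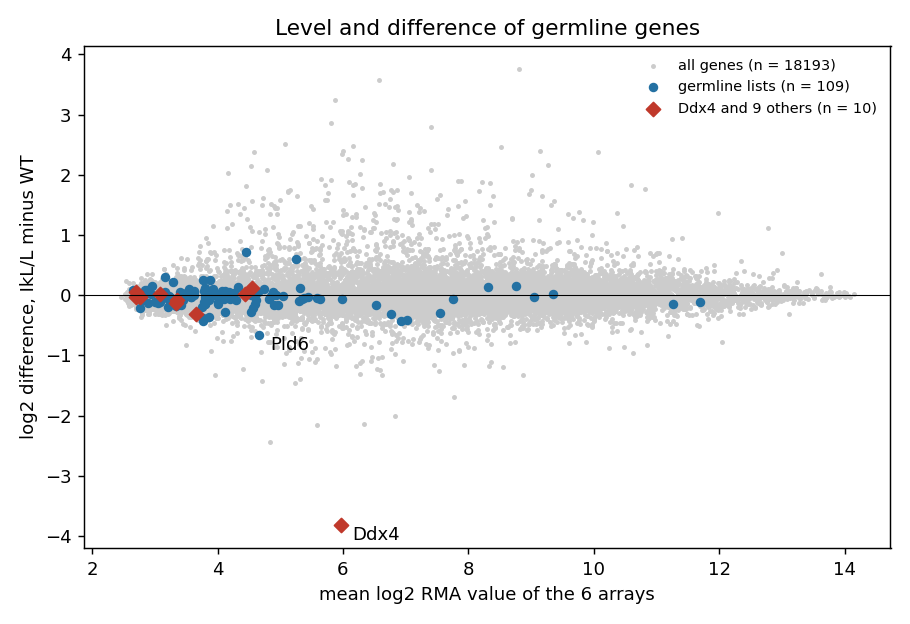
Mean log2 RMA value of the 6 arrays (horizontal axis) against the log2 difference, IkL/L minus WT (vertical axis), with a point per gene, read by its brightest probe set. Of 109 genes of the germline lists (blue) 1 was called, Pld6; Ddx4 lies at -3.82 and the 9 other genes (red diamonds) between -0.31 and 0.12.

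The gene that fell was Pld6, a mitochondrial phospholipase that in mouse germ cells is needed to make piRNAs. It read 4.28, 4.36 and 4.35 in IkL/L 1, 2 and 3, against 4.99, 5.04 and 4.96 in WT 1, 2 and 3. The arrays of a genotype were close together, and the mutant values were below and the WT values above the array medians. The log2 difference was -0.66 (95% interval -0.87 to -0.46, adjusted p = 0.022 in limma), with all 3 mutant arrays lower. It passed also without WT 3 (0.0482) but not without any one of the other arrays (0.0681 to 0.131), while the difference stayed between -0.68 and -0.64. The median difference of the 18 measured piRNA genes, Pld6 included, was -0.07, and 14 were below 0, beside 55.5% of all genes. At an unadjusted p under 0.05 there were 3, beside 11.2%. The groups were apart with lower values in 3 and higher values in 0, beside 9.59% and 7.62%. The mean over the 18 genes was 4.774 to 4.882 in IkL/L and 4.931 to 5.001 in WT arrays, so these ranges did not overlap. Tdrkh, a Tudor protein of mitochondria that binds PIWI proteins, gave -0.42 (adjusted p = 0.477 in limma), with overlapping groups. Mybl1, the transcription factor that drives piRNA precursor genes in mouse spermatocytes, gave -0.38 (0.282), with all 3 mutant arrays lower. The brightest genes of the list, Tdrd3, Snd1 and Tdrd7, act in other tissues as well. Their levels were 9.36, 8.84 and 7.72 in IkL/L and 9.34, 8.69 and 7.78 in WT cells.

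The meiotic genes had 25 measured members, of which 0 passed (4 at an unadjusted p under 0.05, beside 11.2% of all genes). Groups were apart with lower values in 2 and higher values in 1, beside 9.59% and 7.62% of all genes. Spo11, which makes the DNA breaks of meiotic recombination, read 4.69, 5.19 and 4.55 in IkL/L and 4.41, 4.08 and 3.81 in WT arrays. The mutant arrays were all higher, but the difference of 0.71 did not pass (adjusted p = 0.294 in limma). Syce3, a protein of the synaptonemal complex, gave -0.44 (0.384) and Ythdc2, an RNA helicase of the meiotic switch, -0.30 (0.503). Syce2, another protein of that complex, was bright in both genotypes, at 11.65, 11.52 and 11.74 in IkL/L and 11.74, 11.76 and 11.77 in WT arrays. Mns1 and Ythdc2, which are found in other tissues too, also had means above 7. Mei4, which is needed for meiotic DNA breaks, averaged 6.72 in IkL/L and 7.15 in WT cells, a difference of -0.43 that did not pass (0.505). Rec8, the meiotic cohesin, averaged 6.61 in IkL/L and 6.92 in WT cells. Both lay above the array medians on all 6 arrays, as did 8 of the 25 genes in all. Another 14 lay below the median on every array.

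Of 30 measured germ cell regulators 0 passed (1 at an unadjusted p under 0.05, beside 11.2% of all genes). Groups were apart with lower values in 2 and higher values in 1, beside 9.59% and 7.62% of all genes. Pou5f1, the pluripotency factor of embryonic germ cells, gave -0.35 (adjusted p = 0.288 in limma), Cpeb1, which controls polyadenylation in oocytes, 0.22 (0.573) and Sohlh1, a regulator of spermatogonia and oocytes, 0.26 (0.727). The brightest members, Pum2 and Dazap1, bind RNA and are widely expressed. They read 11.20 and 9.03 in IkL/L and 11.35 and 9.06 in WT cells. Among 16 oocyte genes 0 passed, with 1 at an unadjusted p under 0.05. Groups were apart in 2 of them with higher values and in 0 with lower values. Oosp1 gave 0.61 (0.112), with 5.34, 5.63 and 5.71 in IkL/L and 4.87, 4.90 and 5.08 in WT arrays, apart but not past the threshold. Among 20 spermatid genes 0 passed, with 1 at an unadjusted p under 0.05, Spam1 at 0.30 (0.426). Of these 20 genes, 1 had groups apart with higher values and 0 with lower values. Prm1, a protamine that packs sperm DNA, was the brightest of them with 6.44 in IkL/L and 6.61 in WT cells.

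Ddx4 belongs by its sequence to the DEAD-box RNA helicases. Of 33 other measured helicases of this family 0 passed (3 at an unadjusted p under 0.05, beside 11.2% of all genes), the median difference was 0.02, and 31 lay above the median on all 6 arrays. Ddx3x, a ubiquitous helicase of this family that is close to Ddx4, read 12.20, 12.20 and 12.33 in IkL/L and 12.02, 12.31 and 12.19 in WT arrays. The arrays of both genotypes interleaved, with a difference of 0.07. The largest differences by p were those of Ddx31 at -0.42 (adjusted p = 0.362 in limma), Ddx28 at 0.30 (0.538) and Ddx21 at -0.31 (0.564), and the family's range was -0.42 to 0.31.

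The genes next to Ddx4 on chromosome 13 did not pass the test. Of the 5 measured genes on each side, in the order of the RefSeq table, 0 of 10 passed (1 at an unadjusted p under 0.05, beside 11.2% of all genes). The nearest, Slc38a9, which encodes a lysosomal amino acid transporter, read 7.62, 7.48 and 7.35 in IkL/L and 7.76, 7.57 and 7.23 in WT arrays, a difference of -0.04 (adjusted p = 0.969 in limma). On the other side Il31ra, a cytokine receptor chain, gave -0.12 (0.884). The next gene there, Il6st, the shared receptor chain gp130, read 8.61, 8.52 and 8.73 in IkL/L and 8.47, 8.02 and 8.32 in WT arrays, higher in 3 of 3 mutant samples by 0.35 without passing (0.497). Groups were apart with higher values in 7.62% of all genes. Mier3, Map3k1, Ankrd55, Plpp1, Mtrex, Dhx29 and Ccno differed by -0.16 to 0.13.

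**Figure D3:**
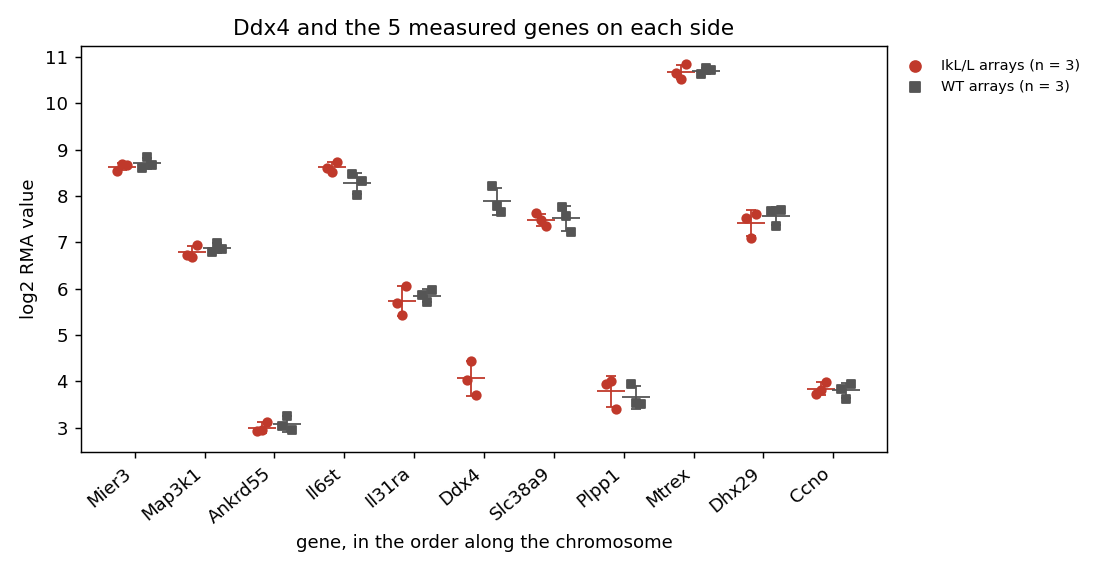
Log2 RMA value (vertical axis) of Ddx4 and the 5 measured genes on each side of it, in the order along the chromosome (horizontal axis), with a point per array and the mean and SD of each group (IkL/L red circles, WT grey squares, n = 3 each). The IkL/L and WT values of Ddx4 are 3.82 apart on average, while its neighbours differ by -0.16 to 0.35.

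Genes that keep germline genes silent in somatic cells were read from a list made after the Ddx4 values were known. All 21 measured genes lay above the median on all 6 arrays and 0 passed (2 at an unadjusted p under 0.05, beside 11.2% of all genes), with a median difference of -0.06. The groups were apart with lower values in 3 of the 21, beside 9.59% of all genes. E2f6, the E2F member of the repressor complex named above, read 9.60, 9.60 and 9.41 in IkL/L and 9.82, 9.63 and 9.87 in WT arrays. The mutant arrays were all lower, by -0.24 on average, without passing (adjusted p = 0.596 in limma). The DNA methyltransferase Dnmt3b gave -0.29 (0.339) and Dnmt1 -0.15 (0.786). Dnmt3a gave 0.52 (0.774), with WT 2 at 8.35 and the other 5 arrays at 9.70 to 10.12. Mga, Max, L3mbtl2 and Pcgf6 gave -0.13, -0.03, -0.04 and -0.25.

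CACGTG was also counted in the promoters of the wider germline lists. It occurred in 17 of 85 genes with a promoter sequence (20%), beside 8.07% of the 27016 other genes counted above. Those include genes without a probe set, and the measured genes with and without the motif numbered 1472 and 12971. By list it occurred in 8 of 23 germ cell regulators, 5 of 21 meiotic genes and 3 of 14 piRNA genes (Pld6 among them). It occurred in 1 of 11 oocyte genes and 0 of 16 spermatid genes. Outside the germline lists it occurred in 4 of 19 silencing genes (21.1%), a share like that of the germline lists. It also occurred in 3 of 30 DEAD-box helicases (10%), 1 of 12 LSK markers and 1 of 4 sex-linked genes. The lymphoid, stromal, and myeloid and erythroid markers held 0 matches. Genes with and without the motif were then set side by side. Over 1472 measured genes with the motif the median log2 difference was -0.02, and over 12971 without it -0.02, with 5 and 27 genes called lower (0.34% and 0.208%, beside 0.242% of all genes) and 11 and 90 called higher (0.747% and 0.694%).

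The genes whose profile over the 6 arrays was most like that of Ddx4 were Hnf4a (Pearson r = 0.996), Gimap7 (0.982), Wfdc18 (0.973), P2ry10 (0.965) and Gcsam (0.947), among 128 genes whose values span at least 2 log2 units. The 6 points are 3 arrays of each genotype, so any gene that is lower in all mutant arrays scores high, and these values are a description. None of the 5 is in a germline list. Hnf4a, a nuclear receptor known from liver and gut, read 6.89, 7.04 and 6.84 in IkL/L and 8.89, 8.49 and 8.45 in WT arrays, with WT 1 the highest as in Ddx4. Gimap7, a GTPase of lymphocytes, read 5.49, 6.12 and 5.90 in IkL/L and 7.84, 7.95 and 7.72 in WT arrays.

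**Figure D4:**
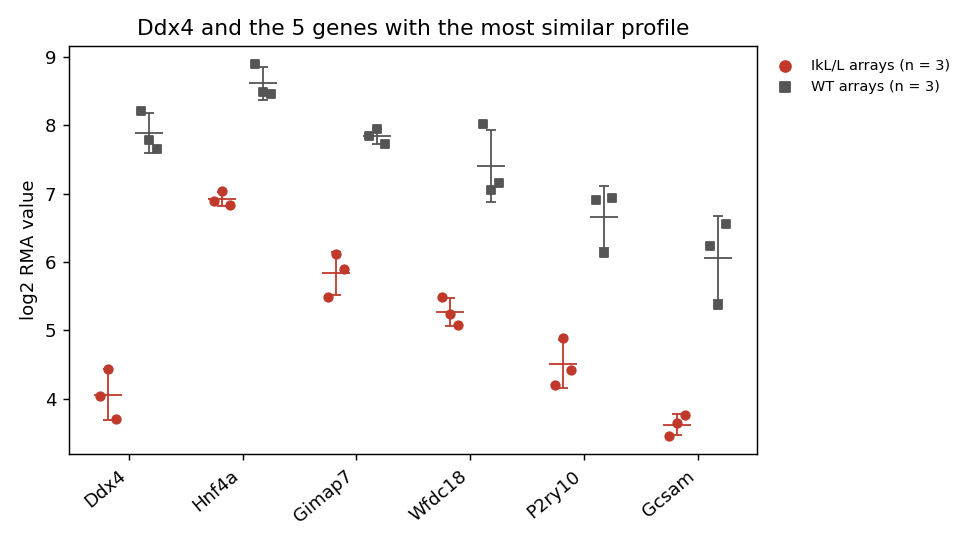
Log2 RMA value (vertical axis) of Ddx4 and of the 5 genes whose profile over the 6 arrays correlates best with it (horizontal axis, r from 0.947 to 0.996), with a point per array and the mean and SD of each group (IkL/L red circles, WT grey squares, n = 3 each). In all 6 genes the mutant values lie below the WT values; the vertical axis does not start at 0.

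Markers of other cells were read in the same way. The mean over 13 lymphoid marker genes was 5.45 to 5.55 in IkL/L and 5.62 to 5.90 in WT arrays. Rag2, a subunit of the antigen receptor recombinase, was the 1 gene that passed (-1.13, adjusted p = 0.0167 in limma). Il7r gave -1.33 (0.241), Dntt -0.78 (0.0532) and Rag1 -0.75 (0.1003), each with all mutant arrays below all WT arrays. Of the 13, 5 had an unadjusted p under 0.05, beside 11.2% of all genes. The groups were apart with lower values in 5 and higher values in 2, beside 9.59% and 7.62%. Among the genes that define T and B cells, Cd3g, Cd79a and Ebf1 read 2.90 to 4.95 on all arrays. Cd3e, Cd4 and Cd8a were above the array medians, at 5.19 to 5.93, and Cd79b was brighter, with a mean of 8.58 in IkL/L and 8.19 in WT cells (difference 0.40, adjusted p = 0.388 in limma, higher in all 3 mutant arrays). The mean over 10 stromal markers was 5.23 to 5.39 in IkL/L and 5.50 to 6.46 in WT arrays, and the 9 measured markers of mature myeloid and erythroid cells averaged 5.94 to 6.25 in IkL/L and 5.42 to 6.16 in WT arrays. None of the stromal or myeloid and erythroid markers passed. At an unadjusted p under 0.05 there were 5 of 10 and 3 of 9, beside 11.2% of all genes. Of the 10 stromal markers, 5 had groups apart with lower values and 0 with higher values. Of the 9 myeloid and erythroid markers, 0 had groups apart with lower values and 2 with higher values. These were Cd68 at 1.17 (adjusted p = 0.0651 in limma) and Klf1 at 1.01 (0.143). In all, 5 of the 9 differences were above 0 and 4 below. The ranges of the 2 genotypes did not overlap for the lymphoid and stromal means and overlapped for the myeloid and erythroid mean. Among WT arrays 1, 2 and 3 the stromal collagen gene Col1a2 was at 10.12, 9.56 and 7.78 and Ddx4 at 8.21, 7.79 and 7.66. Both were highest in WT 1 and lowest in WT 3, as were the stromal markers Col1a1, Col3a1, Sparc and Dcn. Of these, Col3a1 was dim, at 2.70 to 3.09 on all arrays. In IkL/L 1, 2 and 3 Col1a2 read 7.65, 8.34 and 7.87, so its WT 3 value lay within the mutant values. The same held for Sparc, while Col1a1 and Dcn in WT 3 lay above all mutant arrays. Ddx4 in WT 3 was 3.22 log2 units above the highest mutant array. The stromal markers Lum, Cxcl12, Pdgfrb, Lepr and Kitl had another order. The part of these cells in the Ddx4 difference was not tested.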

How the data were processed

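Total RNA (100 ng per sample) was amplified in a 2-cycle reaction and hybridised to Affymetrix mouse arrays. The deposited log2 values are the authors' RMA output (background correction, quantile normalization and summary of probes), which give no detection call. The submitters' notes name RMA and R 2.8, and per the methods the LSK arrays were normalized along with thymocyte arrays. Quantile normalization removes any change in total RNA. Names come from the platform's annotation table, and symbols were updated by Entrez number through a RefSeq table of GRCm38.p6 (34945 probe sets with 1 gene, 932 with several, 9160 not listed). A gene outside the 10 was read by its brightest probe set.

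IkL/L was compared with WT by limma 3.58.1 in R 4.3.3 (lmFit, eBayes, two-sided, genotype only), adjusted by Benjamini-Hochberg over all 45037 probe sets at 0.05. The fit was tested on simulated data. Replicate samples are separate mice or pools, and the number of arrays limits the precision. Levels of different probe sets were set against the array distribution only to describe brightness. Promoter sequences, used for 8 of the 10 genes (none for Piwil2), are RefSeq's, and 1 other promoter is not reported here, for a reason that does not concern its motifs. The members, lists and tests were chosen with earlier results of these data known. Named genes are the 10, Ikzf1, called genes and those with the smallest p or highest level of each list, the neighbours of Ddx4 and the 5 most similar profiles; others, including the silencing genes, were chosen after values were seen. Alternatives were a second quantile normalization, median centring, a filter on dim probe sets, an intensity trend, array weights, a replicate block, each array left out, and averaging of the probe sets of a gene.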

Additional observations from a re-analysis of the deposited data

How the results depend on the processing

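The log2 difference of Ddx4 was -4.01 to -3.65 with 1 array left out and -3.90 to -3.81 under the other alternatives. None of the 12 probe sets of the other 9 genes passed in any of 132 fits (lowest adjusted p 0.217 in limma, for Piwil2 without WT 3); the sign turned in 9 fits. With a filter on dim probe sets none of the 12 was left to test. No probe set of the 9 genes was above the array median on every array, and 0 were above the 95th percentile of the receptor probe sets.

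Over all probe sets 251 were called, 57 to 287 with 1 array left out and 143 with the replicate block. In the germline lists 1 gene was called, Pld6, 0 to 1 with 1 array left out, 0 with the replicate block, 0 with the filter on dim probe sets, which removes Pld6, and 2 after averaging the probe sets of a gene, where fewer features are tested and Oosp1 is added. Pld6 had an adjusted p of 0.0973 with the replicate block and Ikzf1 0.118. Deviations of same-numbered arrays correlated at 0.008, -0.112 and 0.079, and those of differently numbered arrays at -0.129 to 0.120. Same-numbered arrays were thus no more alike than others. With 3 arrays per genotype these values cannot decide whether same-numbered samples shared a batch. The array gives no depth, and levels under the array medians limit what can be said of the 9 genes.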
